A study of Mus musculus with 2 samples.

Results

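The data described here are 23 PPARγ-bound regions around 6 genes that every fat cell uses: Pparg, Fabp4, Adipoq, Plin1, Lpl and Cebpa. They were taken from 2 lists of regions deposited as specific to brown adipose tissue (BAT) or to epididymal white adipose tissue (eWAT). A region was included when its midpoint fell in a fixed window around one of the genes. The windows gave 15 BAT-specific and 8 eWAT-specific regions of 8268 in all (3557 BAT and 4711 eWAT). The regions come from ChIP-seq (sequencing of the DNA that an antibody, here a Santa Cruz antibody to PPARγ, pulls down with its protein) in male Sv129 mice (strain given as 129SV). The mice were 8 to 10 weeks old and kept on normal chow under regular light and dark cycles, and the labels name no treatment or genetic change. Both tissues were taken at zeitgeber time 10 h and fixed with 1% formaldehyde. Each tissue has 1 library, for which ChIP DNA from 4 mice was combined, so no value below has a replicate error and no difference between the depots was tested. Whole tissue was used, so fewer fat cell nuclei and less binding per nucleus cannot be told apart. No expression was measured, so the identity of the depots was not checked against marker genes.

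The windows are stated in the mouse build mm9. They span 200 kb for 5 of the genes and 329 kb for Pparg, whose window is wider. The submitters' processing notes name both mm8 and mm9, and the lists do not say which one they use. All positions below are printed as deposited, 1-based, and their assignment to these genes holds if the lists are in mm9. Sites bound in both depots are not analysed here. A window without a listed region is therefore a window without a depot-specific region, which says nothing of shared PPARγ binding there.

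PPARγ is a nuclear receptor that pairs with RXR and switches on the genes of fat storage, and fat cells do not form without it. It works together with C/EBPα, the product of Cebpa, and each factor is known to maintain the expression of the other. Among its classical targets are Fabp4, which encodes the fatty acid carrier of the fat cell cytoplasm, and Lpl, which encodes lipoprotein lipase, the enzyme that frees fatty acids from circulating triglyceride. Plin1 encodes perilipin 1, which coats the lipid droplet and controls lipolysis, and Adipoq encodes the secreted hormone adiponectin. Both brown and white fat cells express all of these genes.

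PPARγ recognises a direct repeat of the hexamer AGGTCA with 1 base between the copies (AGGTCANAGGTCA). Promoter sequence from RefSeq (build GRCm38.p6, 250 bases before to 50 after each start) was matched by symbol for 4 of the 6 genes, with 6 promoters among them. These were 3 promoters of Pparg and 1 each of Adipoq, Plin1 and Cebpa. No promoter was matched for Fabp4 or Lpl. The hexamer was searched on both strands (AGGTCA or TGACCT). It was present in 2 of these 6 promoters, both of Pparg, and in 16.3% of 32851 mouse promoters of the same length. With both from 1 gene, the count does not show how common the hexamer is among the 6 genes. The full repeat was in 0 of the 6 and in 0.0396% of all promoters. The 3 Pparg promoters and the Cebpa promoter are shown because these are the genes whose windows held regions of both depots. Capitals mark the hexamer. These positions belong to another build than the deposited regions, so no region can be placed on them here.
Pparg promoter 1, chr6:115360894-115361193, plus strand: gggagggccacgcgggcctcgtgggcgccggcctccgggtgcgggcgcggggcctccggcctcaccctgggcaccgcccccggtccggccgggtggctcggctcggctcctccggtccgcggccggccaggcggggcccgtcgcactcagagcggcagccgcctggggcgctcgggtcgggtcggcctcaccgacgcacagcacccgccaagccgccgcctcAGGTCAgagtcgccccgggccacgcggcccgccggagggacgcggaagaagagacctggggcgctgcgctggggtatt
Pparg promoter 2, chr6:115362099-115362398, plus strand: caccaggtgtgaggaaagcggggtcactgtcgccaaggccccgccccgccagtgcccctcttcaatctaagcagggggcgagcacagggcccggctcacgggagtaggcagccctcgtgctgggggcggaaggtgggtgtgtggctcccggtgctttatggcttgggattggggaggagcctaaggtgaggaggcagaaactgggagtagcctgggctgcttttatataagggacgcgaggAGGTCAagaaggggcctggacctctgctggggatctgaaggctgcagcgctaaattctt
Pparg promoter 3, chr6:115421816-115422115, plus strand: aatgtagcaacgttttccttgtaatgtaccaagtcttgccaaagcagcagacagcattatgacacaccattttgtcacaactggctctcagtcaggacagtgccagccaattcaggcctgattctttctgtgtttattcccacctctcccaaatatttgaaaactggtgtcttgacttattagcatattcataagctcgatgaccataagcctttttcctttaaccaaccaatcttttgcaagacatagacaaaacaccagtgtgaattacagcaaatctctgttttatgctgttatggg
Cebpa promoter, chr7:35119043-35119342, plus strand: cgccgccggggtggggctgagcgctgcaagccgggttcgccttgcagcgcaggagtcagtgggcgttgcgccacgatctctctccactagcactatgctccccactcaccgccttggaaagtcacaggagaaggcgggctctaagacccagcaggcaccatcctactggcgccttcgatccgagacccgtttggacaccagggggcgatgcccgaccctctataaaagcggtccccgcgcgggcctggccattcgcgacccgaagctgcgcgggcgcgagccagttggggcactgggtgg
The hexamer starts at base 223 of Pparg promoter 1 and at base 242 of Pparg promoter 2, counted from the 5′ end of the printed sequence. Pparg promoter 3 and the Cebpa promoter do not contain it in these letters. The base composition differed among them, with a G and C content of 80.3%, 62.7% and 40.3% in the Pparg promoters and 67.3% in the Cebpa promoter.

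The depot-specific regions were spread unevenly over the 6 genes. BAT-specific regions were present in 5 of the 6 windows, with 5 at Fabp4, 4 at Pparg, 3 at Cebpa, 2 at Lpl, 1 at Adipoq and 0 at Plin1. The eWAT-specific regions were present in 2 windows, with 7 at Cebpa and 1 at Pparg. The other 4 windows held 0 eWAT-specific regions. As a background, the genome was divided into 13178 stretches of 200 kb laid end to end up to the last listed region of each chromosome. A BAT-specific region was present in 17.5% of them, an eWAT-specific region in 23.6% and regions of both in 6.75%, while 65.7% held none. The Pparg window is wider, and of stretches of its width 25.1% held a BAT-specific region and 33.7% an eWAT-specific one.

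BAT-specific regions were 65.2% of the regions in the windows (15 of 23, exact Clopper-Pearson 95% interval 42.7 to 83.6%), against 43.0% of all listed regions. The interval includes the background share. It covers counting error only, and neighbouring regions are not independent. The share depended on Cebpa, whose window held 7 of the 8 eWAT-specific regions. Without its window, BAT-specific regions were 12 of 13 (92.3%, interval 64.0 to 99.8%). Without the Fabp4 window they were 10 of 18 (55.6%, interval 30.8 to 78.5%). Both windows were left out after their counts were seen, so the direction of each change was fixed beforehand. These intervals too cover counting error only, and neither is a test against the background share.

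Per length, the windows together held 1.13 BAT-specific regions per 100 kb, 8.36 times the mean of 0.135 over all stretches. The eWAT-specific regions came to 0.602 per 100 kb, 3.37 times the mean of 0.179. This eWAT ratio rests on Cebpa, whose window held 7 of the 8 regions, and is not a trait of the 6 genes together. At single genes the BAT density ran from 0 at Plin1 to 2.50 per 100 kb at Fabp4. The eWAT density was 3.50 per 100 kb at Cebpa, 0.304 at Pparg and 0 at the other 4 genes. Stretches of the genome without genes are part of this background, so the ratios do not compare these genes with other genes.

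**Figure D1:**
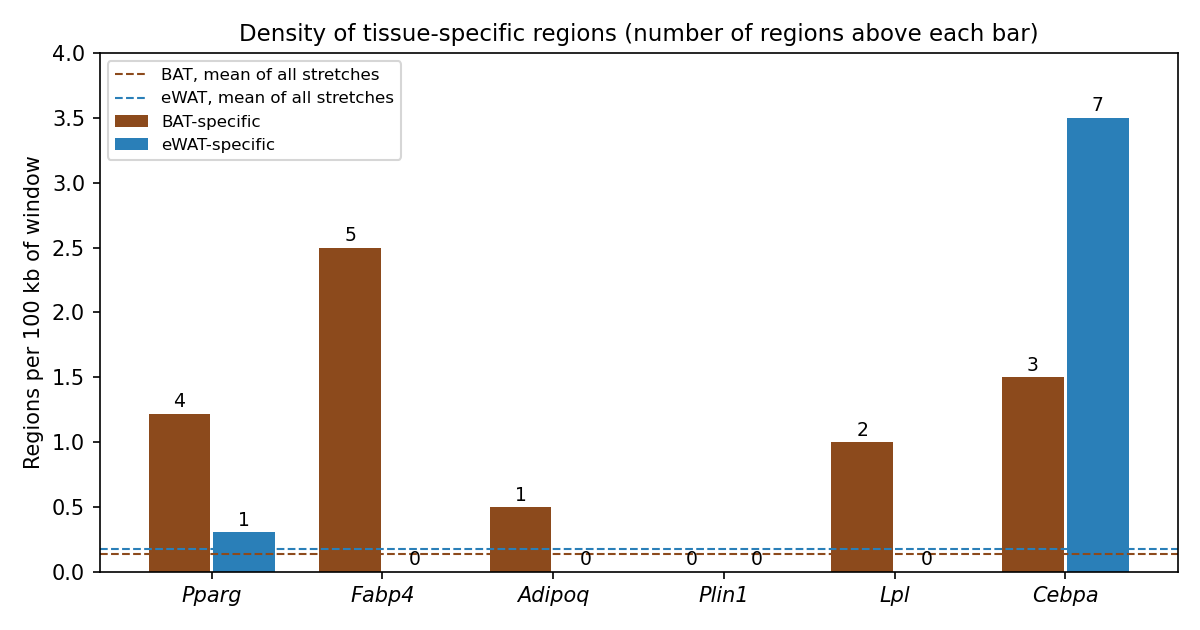
Number of BAT-specific (brown bars) and eWAT-specific (blue bars) PPARγ regions per 100 kb in the window of each gene, with the number of regions above each bar and the mean of all 200 kb stretches as dashed lines (0.135 for BAT, 0.179 for eWAT). Fabp4 carried the highest BAT density (2.50) and Cebpa the highest eWAT density (3.50), and Plin1 had no region of either list.

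Each list gives a score per region, without a stated unit, which was read only within its own list. BAT scores had a median of 3.57 over the whole list, and eWAT scores a median of 2.79. Scores rise in even steps, of 0.0687 for BAT and of 0.348 for eWAT. A score divided by its step gives a number of score steps, which would be a tag count if 1 step is 1 sequenced tag. Poisson intervals (95%) on steps rest on that assumption and cover counting error only. Rank 1 is the highest score of a list, and tied regions share a rank.

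Within the windows as set, most BAT-specific regions scored below the median of their list and most eWAT-specific ones above theirs. Over the 15 BAT-specific regions the median score was 2.88 (range 2.20 to 8.45), with 4 above the list median, 1 at it and 10 below. This depended on the window edge: with 50 kb added on each side, the 4 BAT-specific regions gained (at Pparg, Fabp4 and Lpl) all scored above the list median, and of 19 regions 8 were above it, 1 at it and 10 below, with a median of 3.43. At or below a score of 2.68, where 27.3% of the BAT list lay, were 7 of the 15. Over the 8 eWAT-specific regions the median was 4.18 (range 2.09 to 5.92), with 5 above the list median, 1 at it and 2 below. All 5 of those above it lay in the Cebpa window, and all 5 were in the upper 25% of the list by score. Of the 8, 3 had fewer than 10 score steps, as did 63.1% of the eWAT list.

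**Figure D2:**
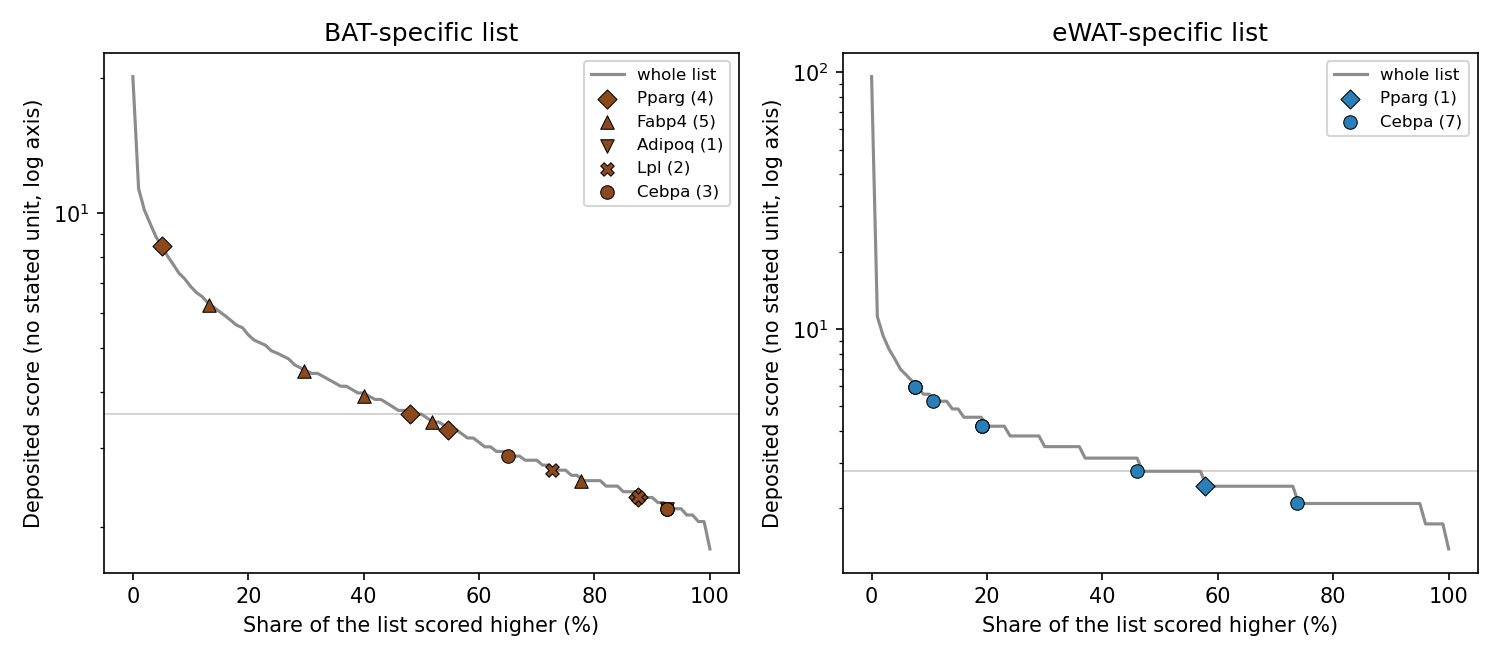
Deposited score (log axis, no stated unit, separate scale for each list) against the share of the list scored higher, for the whole list (grey line) and for the regions in the windows (symbols by gene, with their number). The thin grey line marks the list median (3.57 for BAT, 2.79 for eWAT). Below it lay 10 of 15 BAT-specific regions, and above it 5 of 8 eWAT-specific regions. Regions of a list with equal scores share a position. In the BAT list the Adipoq symbol lies under the Cebpa symbols at 2.20, and Pparg and Lpl symbols overlap at 2.33. In the eWAT list Cebpa symbols overlap at 4.18 and at 5.92.

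Pparg (gene ID 19016), which encodes the immunoprecipitated receptor, carried the strongest region of the 6 windows by rank. This BAT-specific region (chr6:115295713-115295912) lay 79.7 kb below the centre of the window. It scored 8.45, which is 123 score steps (interval 102 to 147) and rank 178 of 3557. The centre is the midpoint of the 329 kb window, not a transcription start, so 79.7 kb need not be the distance from Pparg. The other 3 BAT-specific regions lay above the centre and were of middle or low rank. One was 7.43 kb above it (chr6:115382828-115383027, score 3.30, rank 1945). A further pair, 12.5 kb apart, lay 74.3 kb above it (chr6:115449662-115449861, score 2.33, rank 3112) and 86.8 kb above it (chr6:115462171-115462370, score 3.57, rank 1711). Of these 4 regions, 1 was in the upper 10% of the BAT list by score. The genes next to Pparg were not looked up, and a region in this wide window may lie nearer to one of them.

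The single eWAT-specific region of the Pparg window lay 52.3 kb above the centre (chr6:115427664-115427863). It scored 2.44, or 7 score steps (interval 2.81 to 14.4), and 57.7% of the eWAT list scored higher. It sat between BAT-specific regions, 22.0 kb from the nearest one, and 378 kb from the next eWAT-specific region. Of stretches as wide as this window, 2.23% held 4 or more BAT-specific regions and 33.7% held an eWAT-specific region.

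Fabp4 (gene ID 11770) had BAT-specific regions alone, in 2 groups on either side of the window centre. The lower group held the stronger regions, at 55.7 kb below the centre (chr3:10152238-10152437, score 6.25, 91 score steps, rank 472) and at 50.7 kb below it (chr3:10157219-10157418, score 4.46, 65 score steps, rank 1059). These lay 4.98 kb apart. The upper group spanned 25.7 to 33.6 kb above the centre. Its regions scored 2.54 (chr3:10233573-10233772, rank 2766), 3.91 (chr3:10239610-10239809, rank 1428) and 3.43 (chr3:10241526-10241725, rank 1843).

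A count of 5 or more BAT-specific regions was found in 39 of the 200 kb stretches (0.296%), which is 0.862% of the stretches with any region. The stretches are not placed on genes. Those that overlap the Fabp4 window held 4 and 3 BAT-specific regions, so the Fabp4 regions themselves are not counted among the 39. The share was 0.441% when the stretches started 100 kb further on. The BAT-specific regions at Fabp4 went on below the window, with the nearest one 12.6 kb beyond its edge (chr3:10095292-10095491, score 5.08). Above the window the next BAT-specific region was 4372 kb away. The nearest eWAT-specific region lay 47.9 kb below the window (chr3:10060010-10060209) and scored 2.09, or 6 score steps. The genes next to Fabp4 encode other fatty acid binding proteins, Fabp9 and Pmp2 below it and Fabp12 above it, so a region in this window may lie nearer to one of them than to Fabp4.

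Lpl (gene ID 16956) had 2 BAT-specific regions in its window, both of low rank. They lay 38.4 kb above the centre (chr8:71442331-71442530, score 2.68, rank 2587) and 97.7 kb above it (chr8:71501611-71501810, score 2.33, rank 3112). A count of 2 or more was found in 5.79% of stretches. A stronger BAT-specific region lay just past the upper edge, by 3.77 kb (chr8:71507672-71507871), with a score of 7.49 and rank 264. The eWAT-specific regions nearest to the Lpl window were 1025 kb below and 964 kb above its edges. The genes next above Lpl are Slc18a1 and Atp6v1b2, so the BAT-specific regions above the centre may lie nearer to one of them than to Lpl.

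Adipoq and Plin1 had the fewest depot-specific regions. Adipoq (gene ID 11450) had 1 BAT-specific region, 85.6 kb above the centre (chr16:23231464-23231663). It scored 2.20, or 32 score steps (interval 21.9 to 45.2), and 92.5% of the BAT list scored higher. The gene next above Adipoq is St6gal1, which encodes a sialyltransferase. Plin1 (gene ID 103968) had no region of either list in its window, as did 65.7% of all stretches. Beyond its edges the nearest eWAT-specific region was 47.9 kb above (chr7:87012836-87013035, score 3.14), and the nearest BAT-specific region was 154 kb below (chr7:86611258-86611457, score 2.40).

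**Figure D3:**
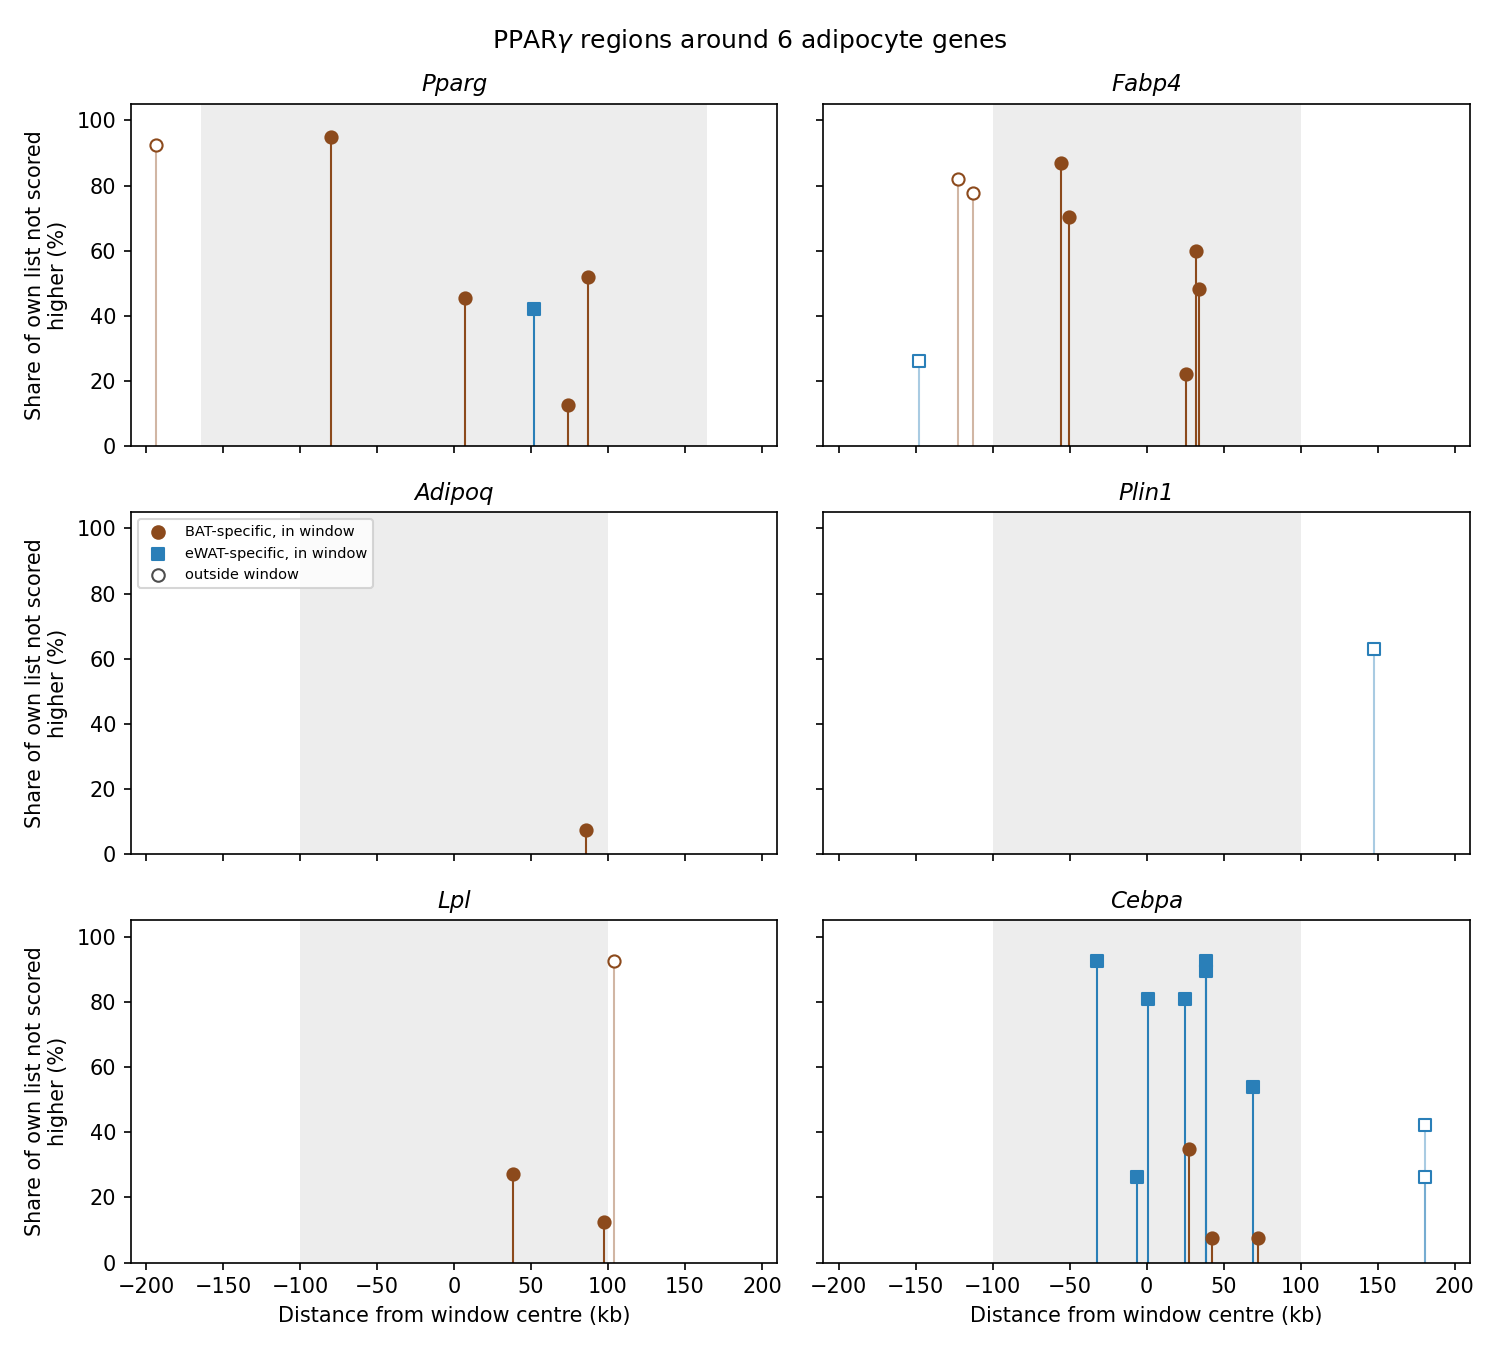
Each PPARγ region within 200 kb of a window centre, by its distance from the centre (kb) and by the share of its own list that did not score higher (%), for BAT-specific (brown circles) and eWAT-specific (blue squares) regions. Grey shading marks the window, and open symbols lie outside it. Fabp4, Adipoq and Lpl windows hold BAT-specific regions alone, Cebpa holds 7 eWAT-specific and 3 BAT-specific regions, and the Plin1 window is empty.

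Cebpa (gene ID 12606) was the gene with the most depot-specific regions, 10 in 104 kb, and the only one of the 6 with more eWAT-specific than BAT-specific regions. A count of 7 or more eWAT-specific regions was found in 9 of the 13178 stretches (0.0683%), and 10 or more regions of either list in 4 of them (0.0304%). One of these 4 stretches contains the Cebpa regions themselves. The share with 7 or more eWAT-specific regions was 0.0304% when the stretches started 100 kb further on, and 0.199% of the stretches with any region. The BAT-specific regions were 3 of 10 (30.0%, interval 6.67 to 65.2%).

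The 7 eWAT-specific regions lay on both sides of the window centre. The lowest in position, 32.2 kb below the centre (chr7:35871723-35871922), scored 5.92, or 17 score steps (interval 9.90 to 27.2), which is rank 354 of 4711. A weak region 6.02 kb below the centre (chr7:35897878-35898077) scored 2.09, or 6 score steps. Of all 23 regions the nearest to a window centre lay 0.645 kb above that of Cebpa (chr7:35904546-35904745, score 4.18, 12 score steps, rank 906).

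Further above the centre, an eWAT-specific region with the same score of 4.18 lay at 25.1 kb (chr7:35928955-35929154). A close pair, 0.484 kb apart, lay at 38.3 kb (chr7:35942155-35942354, score 5.23, 15 score steps, rank 503) and at 38.7 kb (chr7:35942639-35942838, score 5.92, rank 354). The last lay at 69.2 kb (chr7:35973143-35973342) and scored 2.79, the median of the list. By number of score steps, 5 of the 7 had 12 or more and the other 2 had 6 and 8.

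All 3 BAT-specific regions of the Cebpa window lay beside an eWAT-specific one. The first (chr7:35931490-35931689, score 2.88, rank 2314) lay 2.54 kb above an eWAT-specific region. The second (chr7:35946527-35946726, score 2.20, rank 3291) lay 3.89 kb above the close pair's upper member. The third (chr7:35975841-35976040, score 2.20, rank 3291) lay 2.70 kb above the last eWAT-specific region. Each BAT-specific region was thus on the higher-position side of its neighbour. Within 5 kb, a limit chosen after these distances were seen, 2.42% of all BAT-specific regions had an eWAT-specific one. In this window, crowded with eWAT-specific regions, 57.2 of the 200 kb (28.6%) lay within 5 kb of one, so the share over the whole list is a low reference for it. The 3 regions are low in the BAT list, with 65.0% or more of it scored higher, and the next BAT-specific regions were 4816 kb below and 3006 kb above the window.

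**Figure D4:**
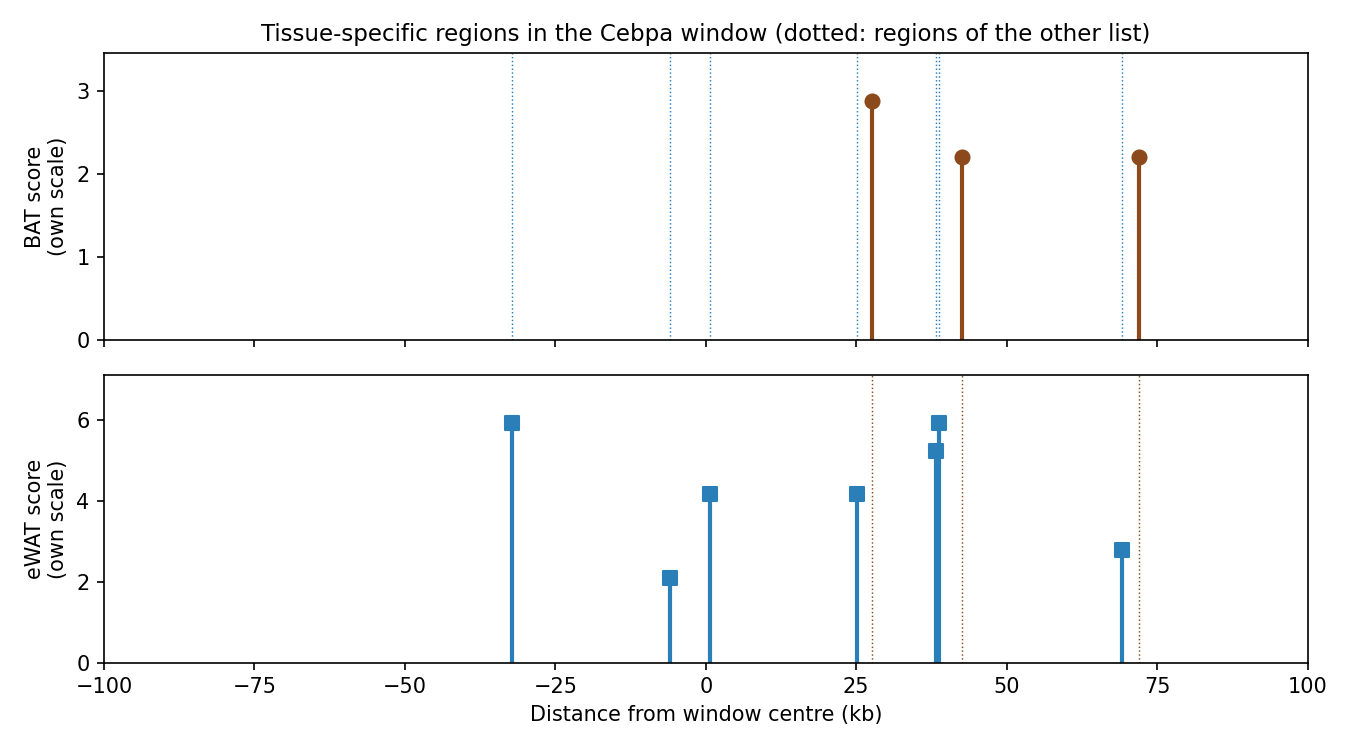
Scores of the 3 BAT-specific (upper panel) and 7 eWAT-specific (lower panel) regions in the Cebpa window by distance from its centre (kb), each list on its own scale, with dotted lines at the regions of the other list. The BAT-specific regions, at 27.6, 42.6 and 71.9 kb, each lie 2.54 to 3.89 kb above an eWAT-specific region.

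The genes next above Cebpa in RefSeq order are Slc7a10 and Lrp3, and Cebpg, which encodes another C/EBP protein, lies below it. Slc7a10 encodes a neutral amino acid transporter known as a surface marker of white fat cells. Regions above the centre of the window may lie nearer to Slc7a10 than to Cebpa, and the distances to these neighbours were not measured, since no gene positions of the lists' build were used.

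Of the 23 regions, 20 lay more than 25 kb from a window centre, where even placement over the windows would put 17.7. The median distance was 50.7 kb for BAT-specific and 35.2 kb for eWAT-specific regions. Within 10 kb of a centre lay 3 regions, 1 BAT-specific at Pparg and 2 eWAT-specific at Cebpa, against 2.10 under even placement. Both counts are near those of even placement. By position, 18 of the 23 lay above the centre and 5 below, where even placement would put equal numbers on each side. Of the 23, 10 came from the Cebpa window alone. Above means a higher chromosome position, whichever strand a gene is on. The centres are midpoints of the stated windows, not annotated transcription starts.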

How the data were processed

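The data are PPARγ ChIP-seq lists from 1 BAT and 1 eWAT library of mouse tissue, grouped by the tissue in the labels. The authors deposited, per tissue, 200 bp regions with a score of no stated unit, made with Bowtie and HOMER (versions and roles not stated) per the submitters' processing notes. How a region was judged depot-specific, the peak threshold and the use of input DNA are not stated. Library depth is unknown. The eWAT score step was 5.07 times the BAT step, and the lowest scores were 26 steps for BAT and 4 for eWAT. If 1 step is 1 tag, the 2 lists begin at different tag counts, and their numbers of regions are not like for like.

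Regions were assigned by midpoint to windows given in mm9. The members, windows and gene list were chosen with earlier results of these data known. All regions in the windows are named, and otherwise only the nearest regions outside them. The score step was the largest one dividing the scores, within a rounding tolerance of 0.005 for 99.9% of BAT and 99.8% of eWAT scores. Counts were set beside stretches of equal width. No test was run. Window counting and the step were tested on simulated data. Python 3.11.15, pandas 2.3.3 and scipy 1.17.1 were used. Windows for 19 further adipocyte genes were planned and not run, since no gene positions of the lists' build were used.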

Additional observations from a re-analysis of the deposited data

How the results depend on the processing

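Counts were recomputed with windows widened or narrowed by 50 kb on each side, any overlap of 1 bp, the lowest BAT score (1.79) as a floor in both lists, a floor of 10 score steps, and regions of a list within 1 kb counted once. An eWAT list shortened to the length of the BAT list, the removal of each gene's window, and the scores in changed windows were chosen after seeing the data. Widening put an eWAT-specific region in 4 windows instead of 2. A floor of 10 score steps left 5 of the 8 eWAT-specific regions, in 1 window, so 1 window held both lists. The lowest score of the BAT list was 26 steps. This floor could therefore remove eWAT-specific regions only, and the direction of its effect was fixed beforehand. Without the Pparg window, 1 window held eWAT-specific regions and 1 both lists. Without the Cebpa window, 1 eWAT-specific region was left, in 1 window, which was also the 1 window with both, and the BAT share rose from 65.2% to 92.3%. In the other alternatives the BAT share was 55.6 to 75.0%, and the number of BAT-specific regions was 10 to 19. The 75.0% came from the floor of 10 score steps. Narrowing left 3 BAT-specific regions at Fabp4, 1 at Lpl and 0 at Adipoq. With stretches starting 100 kb further on, 0.441% held 5 or more BAT-specific and 0.0304% held 7 or more eWAT-specific regions. Among stretches with any region these shares were 0.862% and 0.199%. The median over each gene's highest region was 2.88 for BAT (5 genes) and 4.18 for eWAT (2 genes), too few to show stability. In the widened windows it was 6.25 and 2.79, and the median over all regions was 3.43 and 3.66. With 1 library per tissue, none could be left out. If 1 step is 1 tag, the eWAT scores in the windows rest on 6 to 17 tags, which limits their precision, and the BAT scores on 32 to 123.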

Other observations

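The deposited region names end in a whole number that is not explained. The Cebpa eWAT-specific regions with a score of 5.92 carried numbers 183 and 206, with 1816 the highest number on chromosome 7, while both were tied at place 20 among the 265 listed eWAT regions of that chromosome. The Pparg region with a score of 8.45 carried number 81 and was at place 14 of 216 BAT regions on chromosome 6. The BAT-specific regions of the Lpl window carried consecutive numbers, 806 and 807, with scores of 2.68 and 2.33. The upper 2 BAT-specific regions of the Cebpa window also carried consecutive numbers, 1160 and 1161, both with a score of 2.20.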
